A study of Sus scrofa with 30 samples.

Results

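In mammary gland of sows sampled from gestation to weaning, 40 reference transcripts of 38 genes were highest in the samples taken after weaning. They were picked from 29303 reference messenger transcripts in a table of 61773 transcripts by 3 criteria. Each W2 sample had to lie above all 12 counted samples of the other 4 stages. The W2 mean had to reach at least 5 TPM, the share of a library held by a transcript per unit of length, scaled to a fixed library total, and it had to be at least 2 times the next highest stage mean. The values at W2 therefore describe the choice and carry no test.

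The samples came from Danish Landrace×Yorkshire half-sibling sows, none treated, with parenchyma cut from 1 gland of each sow. There were 6 sows at each of 5 stages, which were gestation day 70 (MG), gestation day 110 (LG), postpartum day 2 (EL), postpartum day 10 (PL) and post-weaning day 2 (W2). Counted here are 3 samples a stage, MG 1, 3 and 6, LG 1, 3 and 4, EL 3, 4 and 6, PL 2, 3 and 6, and W2 2, 3 and 6. The other 15 columns lie close to the mean of those 3 and to each other, with a median difference between transcripts of at most 1.85% within a stage, against 19.6% to 59.8% among counted samples, so they were not taken as further animals.

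When suckling stops, milk stays in the alveoli, secretory epithelial cells are shed and die, and the gland then rebuilds its stroma, a process called involution. Its first phase is reversible and is known for signalling through LIF and STAT3, for lysosomal proteases and for NF-kappaB activity. One gene can give several transcripts that differ in promoter, splicing or end, and such isoforms can change places without a change in the total output of the gene.

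Milk protein transcripts showed the tissue to be mammary at all stages. The summed level of 7 milk protein genes ran from 104466 to 138449 TPM at W2 and from 225334 to 407072 TPM at PL. The sum understates the fall in most of these genes, whose median ratio of W2 to the next highest stage was 0.0524. Beta-casein (CSN2) was 1405 to 3799 TPM at W2, and its level in MG samples (4862 to 16977 TPM) lay below that in EL samples (33157 to 58718 TPM). The sample titles were followed for the stage names, since another label field of the same samples carries mid-gestation for EL and early lactation for MG. Each counted column summed to between 997480 and 998888 TPM, so a value is a share of its library, and the table does not give the reads behind it. PL sample 2 stood apart, with 34065 transcripts above 0 against 39524 to 46114 in the other 14 samples. In whole tissue, fewer cells of a type and less RNA per cell cannot be told apart.

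The first criterion alone, each W2 sample above all others, was met by 574 of the 29303 transcripts (1.96%). The same rule found 73 reference transcripts when PL was taken as the peak, 11 for MG, 9 for LG and 3 for EL. In 100 draws in which the stage names of the 15 samples were permuted, the number for the stage named W2 had a median of 8, quartiles of 4.75 and 11.25 and a range of 0 to 44. It reached 40 in 1 draw, and in that draw 1 of the true W2 samples kept its name. The number depended on how the libraries were scaled to each other. Median ratio scaling divides each library by a factor, which was 0.567 to 0.841 in PL and 1.16 to 1.28 in W2. After it 8 of the 40 transcripts met the rule and no others did, while the number for PL became 247. The 8 were those of SSB, ADD3, FMO2, RAB4A, BRD2, LOC100521447, H2AFY and YTHDF3, and quantile normalization left the same 8 and RCBTB1. All 40 W2 means stayed the highest of the 5 under median ratio scaling, with a median ratio to the next stage of 1.99, and in 19 each W2 sample stayed above all others.

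**Figure D1:**
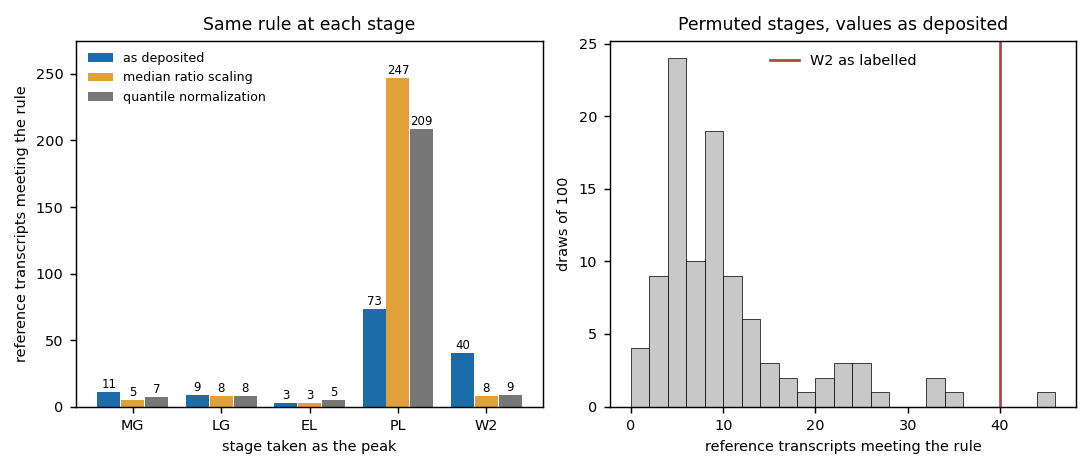
Left, the number of reference transcripts meeting the rule (y axis) with each stage in turn as the peak (x axis), for values as deposited and after 2 other scalings; W2 goes from 40 to 8 or 9 and PL from 73 to 247 or 209. Right, a histogram of that number over 100 draws of permuted stage names (median 8, highest 44), with a line at the 40 found with W2 as labelled.

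The 40 transcripts were modest in level. Their W2 means ran from 5.31 to 123 TPM with a median of 11.7 TPM, 9 were over 20 TPM and 14 under 10 TPM. Together they made up 780 ± 7.60 TPM at W2 (SD, n = 3), or 0.0782% of the library, against 272 ± 6.60 at MG, 242 ± 59.9 at LG, 205 ± 26.1 at EL and 144 ± 56.2 at PL. The ratio of the W2 mean to the next stage had a median of 2.42, passed 3 in 10 transcripts and passed 4 in 5. The distance between the lowest W2 sample and the highest other sample was often small, being less than 1.1-fold in 8 transcripts and more than 2-fold only in those of SSB and YTHDF3. The next highest stage was MG for 17 transcripts, LG for 15, EL for 6 and PL for 2.

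**Figure D2:**
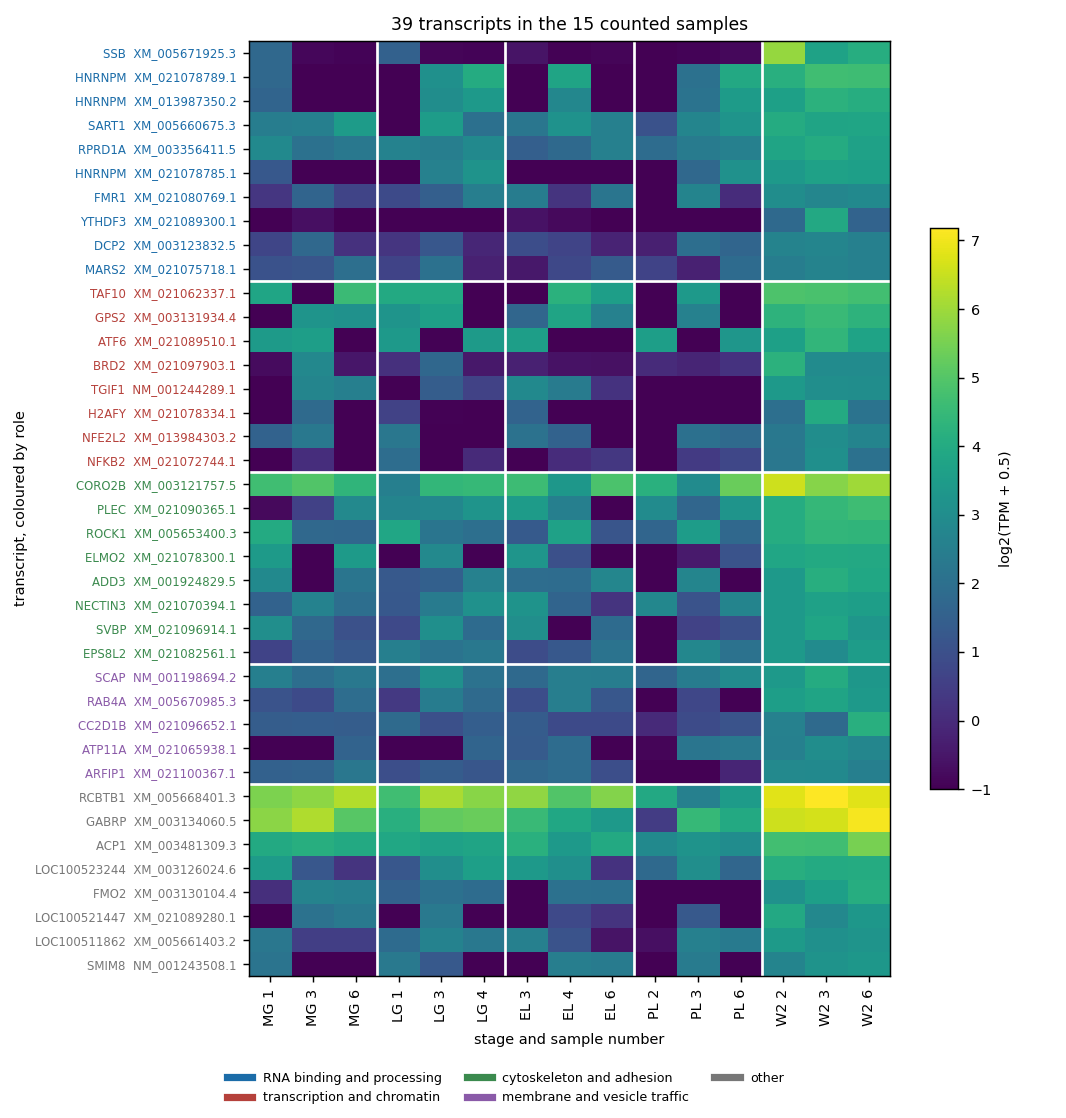
Heat map of log2(TPM + 0.5) (colour) for 39 of the 40 transcripts (rows, grouped and coloured by role) in the 15 counted samples (columns, by stage). The 3 W2 columns hold the highest value of every row, and the dark cells among the other 12 columns include 101 values listed at 0, 21 of them in PL sample 2.

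Proteins that bind or process RNA gave 11 of the transcripts, from 9 genes. SSB encodes the La protein, which holds the ends of newly made small RNAs (chromosome 15, 76088587 to 76099517, Sscrofa11.1). Its transcript XM_005671925.3 was 59.4, 12.5 and 16.6 TPM in W2 samples 2, 3 and 6. In the other 12 samples it was 0 to 2.87 TPM, and only MG sample 1 and LG sample 1 passed 1 TPM. The SSB gene as a whole did not follow. Its main other transcript, XM_001924998.6, was 21.9, 65.1 and 0.730 TPM in the same W2 samples and averaged 74.8 ± 20.8 TPM at MG, and the sum of all its transcripts at W2 was 0.776 times that at MG.

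YTHDF3, a reader of N6-methyladenosine on messenger RNA, showed the same form. Transcript XM_021089300.1 was 2.98, 14.9 and 2.53 TPM at W2, was listed at 0 in 9 of the other 12 samples and reached at most 0.158 TPM in the rest. It made up 19.6% of the summed YTHDF3 level at W2, and that sum was 1.17 times the next stage. The W2 ratio of 85.1 for this transcript, like the 30.1 of SSB, was thus set against levels near 0.

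HNRNPM, a splicing regulator with 20 transcripts in the table, held 3 of the 40 (XM_021078789.1, XM_013987350.2 and XM_021078785.1). The 3 moved together, at 17.6, 12.0 and 10.0 TPM in W2 sample 2 and at 25.1, 18.5 and 12.5 TPM in W2 sample 3. In W2 sample 6 they were 24.3, 16.8 and 11.7 TPM. All 3 were listed at 0 in the same 6 samples, which were MG 3 and 6, LG 1, EL 3 and 6 and PL 2, while the gene sum there was 75.1 to 204 TPM. The transcripts share exons of 1 gene, so their reads were divided among them by the quantification and they are not separate observations. The HNRNPM sum was 1.07 times the next stage.

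DCP2, the enzyme that removes the cap from messenger RNA, was highest at W2 as a whole gene. Its transcript XM_003123832.5 was 5.87, 6.14 and 5.45 TPM at W2, and no other DCP2 transcript was above 0 there. It was 3.38 and 2.71 TPM in PL samples 3 and 6 and at most 2.88 TPM in the other samples outside W2, and the gene sum ratio was 2.72. SART1, a spliceosome factor, RPRD1A, which binds the tail of RNA polymerase II, FMR1, an RNA-binding repressor of translation, and the mitochondrial methionyl-tRNA synthetase MARS2 had transcript ratios of 2.03 to 2.37. Their gene sum ratios were 1.16, 1.30, 1.44 and 1.69.

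Transcription and chromatin proteins gave 8 transcripts, each from its own gene. TAF10, a shared subunit of TFIID and SAGA, has a single transcript in the table (chromosome 9, 3144262 to 3145702). It was 29.5, 27.9 and 25.4 TPM at W2. The 7 other samples in which it was above 0 held 10.1 to 23.1 TPM, and 5 samples, MG 3, LG 4, EL 3, PL 2 and PL 6, were listed at 0. The stage means that the ratio of 2.25 rests on contain these zeros, and whether they are failed estimates was not tested. GPS2, a subunit of the NCoR corepressor complex, was alike, at 19.0, 22.6 and 19.0 TPM at W2, 2.78 to 13.4 TPM in 8 other samples and listed at 0 in 4. Its gene sum ratio was 2.16.

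BRD2, a bromodomain reader of acetylated histones, had a transcript (XM_021097903.1) at 18.8, 7.30 and 7.23 TPM at W2, at 6.53 TPM in MG sample 3 and at 2.83 TPM or less in the rest. H2AFY, which encodes the histone variant macroH2A1, was 3.44, 15.6 and 3.88 TPM at W2 and at most 3.09 TPM elsewhere, with 7 samples listed at 0. In both, 1 W2 sample stood over the other W2 samples, W2 2 for BRD2 and W2 3 for H2AFY, and the gene sums were 1.07 and 1.08 times the next stage. Of the stress and inflammatory factors, NFKB2, the p100 precursor of the non-canonical NF-kappaB pathway, was 4.28, 8.02 and 3.62 TPM at W2 and at most 3.26 TPM elsewhere. NFE2L2, the oxidative stress factor NRF2, was 4.39, 7.58 and 5.98 TPM at W2, and its lowest W2 value barely passed the 4.39 TPM of MG sample 3. ATF6, a sensor of unfolded protein in the endoplasmic reticulum, was 12.0, 20.6 and 12.8 TPM at W2. In other samples it was either 9.33 to 11.6 TPM (7 samples) or at most 0.0164 TPM (5 samples). TGIF1, a corepressor of SMAD signalling, was 7.59 to 9.92 TPM at W2 and listed at 0 in all 3 PL samples. The gene sums of NFKB2, NFE2L2, ATF6 and TGIF1 were 1.13, 1.15, 1.03 and 1.31 times the next stage, so the W2 difference lay in these transcripts more than in the gene sums.

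Cytoskeleton and adhesion proteins gave 8 transcripts, and 5 of their 8 gene sums had every W2 sample above all others, against 5.64% of 8642 gene sums, which the choice of the transcripts favours. ROCK1, a kinase that drives actomyosin contraction, has a single transcript in the table (chromosome 6, 106163899 to 106314998). It was 16.3, 20.5 and 19.8 TPM at W2. The other samples fell into a high set, with 15.7, 14.0, 12.4 and 11.06 TPM in MG 1, LG 1, EL 4 and PL 3, and a low set of 8 samples at 1.73 to 4.07 TPM. Each of the 4 stages thus held 1 sample near the W2 level and 2 far below it. CORO2B, a coronin that binds actin, was the most abundant of the group at 94.3, 51.6 and 63.7 TPM at W2 against at most 39.1 TPM, and its gene sum ratio was 1.77.

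PLEC, the linker of intermediate filaments to the membrane, ADD3, a cap of actin filaments below it, and ELMO2, an activator of RAC1 in engulfment of dying cells, had transcript W2 means of 20.6, 13.8 and 14.7 TPM. ELMO2 was nearly flat at W2, 14.0 to 15.3 TPM, but in the rest it went from 0 in 5 samples to 10.5 TPM in MG samples 1 and 6. NECTIN3, a junction protein, EPS8L2, an actin regulator, and SVBP, the partner of the enzymes that remove the terminal tyrosine of tubulin, were 9.35 to 11.4 TPM at W2. The gene sum ratios of these 6 genes were 1.17 to 1.63.

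Membrane and vesicle traffic gave 5 transcripts. RAB4A, a GTPase of early endosome recycling, was 11.4, 13.2 and 10.2 TPM at W2 against at most 5.11 TPM, with PL samples 2 and 6 listed at 0. SCAP, which escorts SREBP factors to the Golgi for activation, was 10.1, 15.7 and 9.55 TPM at W2 against at most 8.10 TPM. ATP11A, a flippase that keeps phosphatidylserine on the inner leaflet, was 5.41 to 7.64 TPM, and the sum of its transcripts was 0.882 times the next stage. CC2D1B, which works with the ESCRT-III membrane remodelling complex, was 5.54, 3.04 and 17.2 TPM at W2, and 3.03 TPM in LG sample 1. Its mean therefore rested on W2 sample 6, and its lowest W2 sample barely passed LG sample 1. The gene sums of RAB4A, SCAP and CC2D1B were 1.20, 1.07 and 1.06 times the next stage.

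The remaining 8 transcripts included the most abundant of all. RCBTB1, a BTB-domain protein (chromosome 11, 18132013 to 18197759), was 112, 145 and 113 TPM at W2. GABRP, the pi subunit of the GABA-A receptor, which marks hormone receptor-negative luminal cells, was 93.4, 100.3 and 134 TPM at W2 (chromosome 16, 53205616 to 53228765). GABRP was 53.7, 73.3 and 32.7 TPM at MG, 17.3, 37.0 and 39.0 TPM at LG and 22.9, 14.1 and 10.3 TPM at EL. At PL it was 0.886, 21.6 and 15.2 TPM, so its level was lower at each stage mean from MG to PL and highest at W2. Nearly all of GABRP came from this transcript, with a gene sum ratio of 2.04 beside a transcript ratio of 2.05.

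FMO2, a flavin monooxygenase, was 8.23, 11.9 and 16.7 TPM at W2, 0 to 5.84 TPM at MG, LG and EL and listed at 0 in all PL samples, with a gene sum ratio of 2.57. The phosphatase ACP1 was 25.9, 25.2 and 45.0 TPM at W2 against at most 17.9 TPM, with a gene sum ratio of 1.03. In SMIM8, a small membrane protein, the transcript that held most of the gene's level differed among the other samples. Its transcript NM_001243508.1 was 5.99, 8.66 and 9.49 TPM at W2 and was listed at 0 in 6 other samples, where the sum of the gene was 1.73 to 7.05 TPM. Whether isoforms changed places or shared reads were divided differently by the quantification was not tested. The 3 transcripts of genes with only a locus name, LOC100523244, LOC100521447 and LOC100511862, had W2 means of 16.2, 10.4 and 9.22 TPM.

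**Figure D3:**
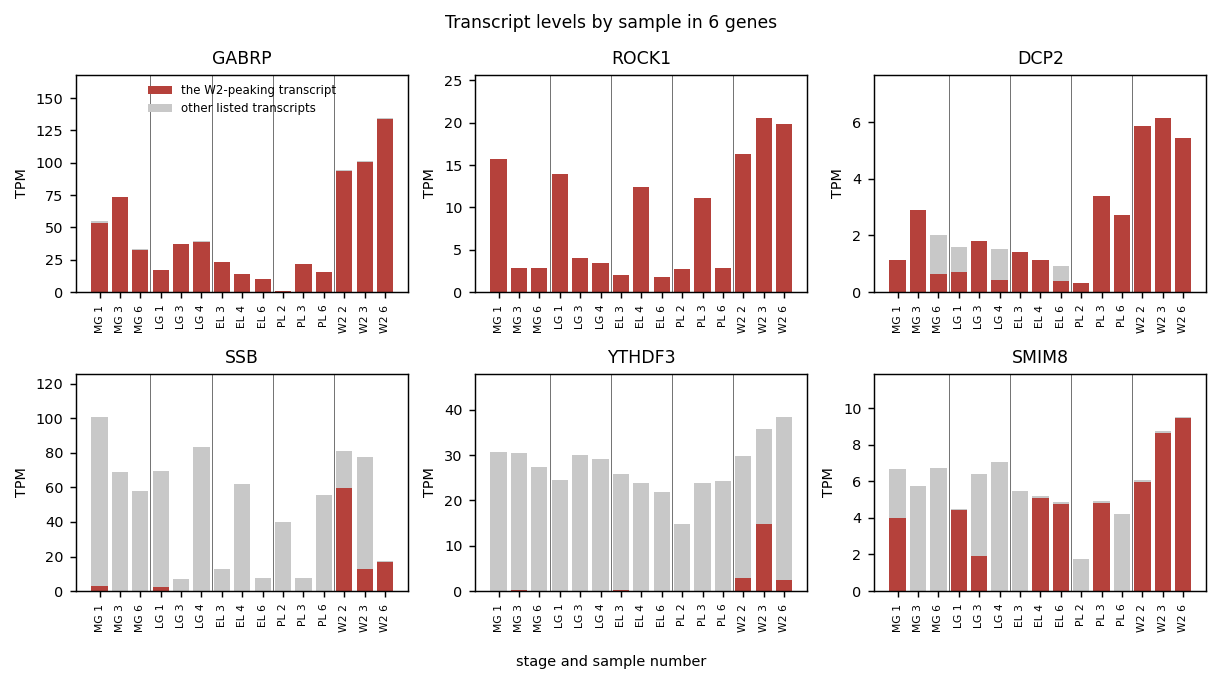
TPM by sample (x axis, stage and sample number) in 6 genes, with the W2-peaking transcript in red and all other listed transcripts of the gene stacked in grey. In GABRP, ROCK1 and DCP2 the whole gene is highest in the 3 W2 samples, whereas in SSB, YTHDF3 and SMIM8 grey transcripts fill the other samples and the W2 ratio of the gene sum is 0.776, 1.17 and 1.27.

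For most of the 38 genes the W2 peak was larger in the transcript than in the gene sum, which choosing single transcripts favours. The mean gene sum was still highest at W2 in all but 3 genes. The sum of all listed transcripts met the same rule for 6 genes, GABRP, TAF10, GPS2, ROCK1, FMO2 and DCP2. Among all 8642 genes whose W2 sum was at least 5 TPM, 7 met it, the other being LOC110259370. Each W2 gene sum lay above all others in 12 of the 38 genes, against 5.64% of the 8642 genes, a comparison that the choice of the transcripts favours. The gene sum ratio had a median of 1.21 and a range of 0.776 to 2.72, with 29 genes below 1.5 and 3 below 1, and the median over the 8642 genes was 1.04. In the 36 genes with other transcripts, the ratio for the sum of those others was below 1 in 30 and reached at most 1.36. Taking out the transcripts chosen as high at W2 favours low ratios here, as does dividing by the highest of the 4 other stage means. The share of its gene's level that a transcript held went from a median of 21.9% elsewhere to 45.4% at W2, a rise that follows in part from choosing transcripts high at W2, and 25 of the 40 were the most abundant of their gene at W2.

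**Figure D4:**
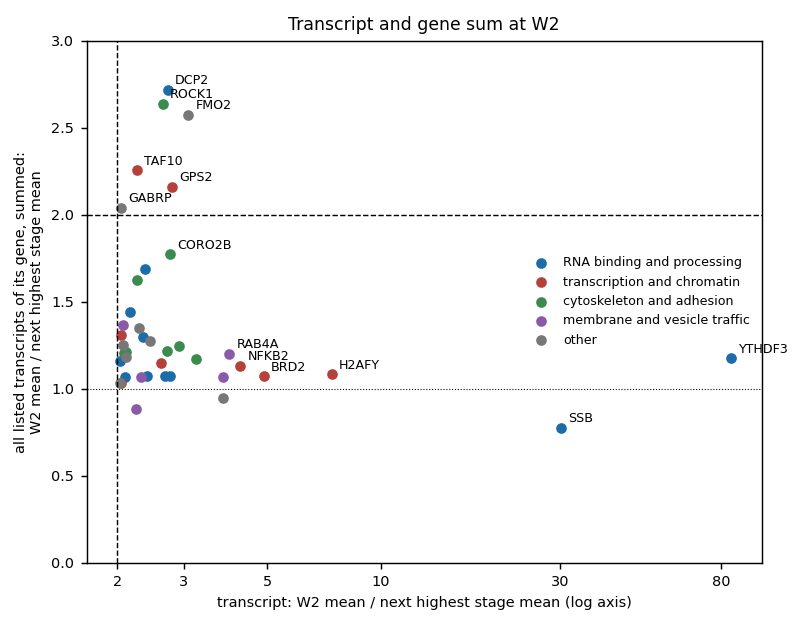
Each of the 40 transcripts by its own ratio of W2 mean to next highest stage mean (x axis, log scale) and by the same ratio for the sum of all listed transcripts of its gene (y axis, linear), coloured by role. Dashed lines mark 2 and the dotted line 1; the points of 6 genes lie above 2 on the y axis, and SSB and YTHDF3, at 30.1 and 85.1 on the x axis, lie at 0.776 and 1.17 on the y axis.

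Some features of the transcripts and their genes were not named by the rule, though those taken from levels rest on values it used. They came from genes with a median of 5 transcripts in the table, against 2 for the 9541 reference transcripts with a W2 mean of at least 5 TPM, and 5% against 35.6% were the single transcript of their gene. Their genes spanned a median of 45159 bases, against 24619. At least 1 of the other 12 samples was listed at 0 for 65% of them, against 23.7%, which a rule asking for low values outside W2 favours, and 107 of their 480 values outside W2 were 0. The sum of the gene was at least 1 TPM in 89 of these 107 cases, so most zeros belonged to the transcript while its gene was present. PL was the lowest stage for 37.5% of the 40, against 62.2% of the comparison set, and MG for 30%, against 6.75%. The rule bears on these shares, since it leaves out transcripts high at MG. In the comparison set MG was the next highest stage for 57.5%. W2 sample 3 held the highest W2 value for 22 of the 40 (55%, against 35.0%), W2 sample 2 for 11 (27.5%, against 22.6%) and W2 sample 6 for 7 (17.5%, against 42.4%).

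Comparisons without W2 were not used by the rule and were tested by limma on log2(TPM + 0.5) with Benjamini-Hochberg adjustment over all 61773 transcripts, a call needing an adjusted p under 0.05 and a log2 change of at least 2 in size. That scale understates the change of low transcripts. Transcripts of RCBTB1 and of ARFIP1, a partner of ARF and RAC1 GTPases at the Golgi, fell at PL. RCBTB1 was 46.7, 55.4 and 75.9 TPM at MG and 14.7, 5.37 and 10.8 TPM at PL, with LG at 25.0 to 70.7 TPM and EL at 30.4 to 56.4 TPM, so PL did not overlap MG, LG or EL. ARFIP1 was 2.39, 2.57 and 4.19 TPM at MG, 1.47 to 2.09 TPM at LG, 1.44 to 3.21 TPM at EL and 0, 0 and 0.394 TPM at PL. At W2 it was 6.78, 6.93 and 5.29 TPM. This transcript was 1 of 17 of ARFIP1 and held 4.54% of the gene's level outside W2. The ARFIP1 gene sum was 44.9 ± 18.2 TPM at MG and 31.9 ± 16.4 TPM at PL (SD, n = 3), and the samples overlapped. That of RCBTB1 was 168 ± 29.5 TPM at MG and 22.6 ± 2.47 TPM at PL.

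From MG to PL, 2 of the 40 were called, both lower (5%, against 1.37% of all transcripts). The background was 238 transcripts higher and 848 lower as deposited, and 382 higher and 359 lower after median ratio scaling. From LG to PL these were 166 higher and 508 lower, then 268 and 303, and from EL to PL 86 higher and 166 lower, then 159 and 153. The 40 had to reach a W2 mean of 5 TPM, while the shares over all 61773 transcripts have no floor. Among the 35192 transcripts with a mean of at least 1 TPM, 1086 were called lower from MG to PL. From LG and from EL to PL 650 and 199 of them were. From MG to PL the log2 change was -2.55 ± 0.42 (SE) for RCBTB1 (limma, adjusted p = 0.00499) and -2.51 ± 0.38 for ARFIP1 (adjusted p = 0.0032). From LG to PL the call was RCBTB1 (1 of 40, against 0.822% of all transcripts called lower), at -2.19 ± 0.42 (limma, adjusted p = 0.0165). ARFIP1 changed there by -1.90 ± 0.38 (limma, adjusted p = 0.0211), short of the required size. From EL to PL both were lower (2 of 40, against 0.269%), at -2.16 ± 0.42 for RCBTB1 (limma, adjusted p = 0.0358) and -2.24 ± 0.38 for ARFIP1 (adjusted p = 0.0187). None of the 40 was called by limma between MG and LG (background 0.0162%), LG and EL (0.0178%) or MG and EL (0.0389%), and 0, 1 and 0 of them had an unadjusted p under 0.05. Over the 40, the median log2 change was -0.49 from MG to PL, against -0.39 over all transcripts, -0.42 from LG to PL, against -0.31, and -0.12 from EL to PL, against -0.10.

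With the compared stages fitted alone, every call of RCBTB1 and ARFIP1 was lost, with a limma adjusted p of 0.0777 and 0.112 from MG to PL, and with the replicate block ARFIP1 lost its call there (adjusted p = 0.0597). The block, which follows sample numbers, also ended the calls from LG and EL to PL. The call of RCBTB1 from LG to PL was lost without LG sample 3, LG sample 4 or PL sample 3, with an adjusted p of up to 0.0757. From EL to PL it was lost without any 1 of 11 samples, the exceptions being EL 4, PL 2 and LG 1 and 3, with an adjusted p of up to 0.154, and the call of ARFIP1 was lost without EL sample 3 (adjusted p = 0.0636). Median ratio scaling moved the median change of all transcripts from MG to PL from -0.39 to -0.02, and ARFIP1 kept its call from MG and from EL to PL (limma log2 changes -2.28 and -2.28, adjusted p = 0.00883 and 0.0154). RCBTB1 changed by -1.90, -1.71 and -1.83 from MG, LG and EL to PL under it (limma, adjusted p = 0.0479, 0.0868 and 0.0957) and was not called.

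The rule used the comparisons with W2, and their calls are given as a description. Against PL, 11 of the 40 were called higher, where 2.29% of all transcripts were (1415 higher and 339 lower), and they were those of TGIF1, FMO2, GABRP, RCBTB1, RAB4A, SSB, H2AFY, YTHDF3, CC2D1B, BRD2 and ARFIP1. All transcripts gave 478 higher and 458 lower after median ratio scaling and 470 higher and 562 lower after quantile normalization. Against EL these were SSB and YTHDF3 (2 of 40, background 0.0308%), against LG it was YTHDF3 (1 of 40, background 0.0162%), and against MG it was none (background 0.0146%). A call needs a log2 change of at least 2, which is more than the 2-fold of the rule, so a member could miss it on size alone. The median log2 change of the 40 from MG to W2 was 1.99.

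The 29 lists of cell type markers and pathways, with 346 genes and 867 reference transcripts, held 2 of the 40 (0.231% of the list transcripts, against 0.137% of all reference transcripts). Among list transcripts with a W2 mean of at least 5 TPM the share was 0.524%, against 0.419%, so the lists held members at about the background share. They were NFKB2 among 34 NF-kappaB transcripts and NFE2L2 among 107 transcripts of genes that the study's text links to W2, a list taken from a text on these same samples. From PL to W2, where 2.29% of all transcripts were called higher and 0.549% lower, 2 of the 34 NF-kappaB transcripts were called higher and 0 lower, with 0 and 1 of 26 for LIF and STAT3 signalling, 0 and 0 of 50 for cell death and 5 and 0 of 137 for splicing. Milk proteins had 7 of 10 transcripts lower. More were higher among transcripts for cell division (8 of 25), Wnt signalling (11 of 80), translation and poly(A) binding (6 of 50) and the genes linked to W2 in the study's text (16 of 107, with 2 lower). Against MG, LG or EL, each of these lists had 0 transcripts called higher at W2. The cell division sum averaged 233 TPM at W2, 46.2 TPM at PL and 254 TPM at MG. These list calls are for values as deposited, and after median ratio scaling all transcripts gave 478 higher and 458 lower from PL to W2.

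Marker levels for cell types were summed over the genes of each list. The 7 luminal markers summed to 1644 to 2261 TPM at W2 and 875 to 1906 TPM at PL. The 7 fibroblast markers were 1415 to 2665 TPM at W2, 483 to 1114 TPM at PL and 1562 to 2369 TPM at MG. The 4 neutrophil markers found were 1.30 to 2.79 TPM at W2 and 9.21 to 47.0 TPM at PL, and both skeletal muscle markers found were 0.101 to 0.338 TPM at W2 and 3.10 to 14.7 TPM at PL. The 4 keratinocyte markers found were 402 TPM in W2 sample 6, against 2.26 and 2.49 TPM in the other W2 samples and at most 87.0 TPM in the remaining 12. W2 sample 6 was the highest W2 sample for 7 of the 40, among them GABRP, FMO2, ACP1 and CC2D1B, and 36 of the 40 met the rule without it. The part of these marker levels in the W2 peaks was not tested.

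The limits of the rule cut through a continuous range. Just inside the ratio of 2 were transcripts of SART1 (2.03), ACP1 (2.04) and ATF6 (2.04). Just outside it were those of RNF214 (1.992), PFAS (1.995) and RBM3 (1.995). Just inside the floor of 5 TPM were NFKB2 (5.31 TPM) and MARS2 (5.43 TPM), and just below it was a transcript of SP1, with a W2 mean of 4.82 TPM and a ratio of 38.6. A floor of 1 TPM would have given 102 transcripts and one of 10 TPM 26, and a ratio of 1.5 would have given 106 and one of 3 would have given 10. The number was 165, 138 and 126 without W2 sample 2, 3 or 6 and 61 without MG sample 3, and 35 to 52 without any other sample. In the W2 columns that were not counted, 1, 4 and 5, all 40 lay above the other counted samples, and their means differed from the counted ones by at most 0.642 TPM, which is no independent repeat.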

How the data were processed

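The authors used FastQC and Trimmomatic on the reads, HISAT2 for alignment to Sscrofa11.1 and StringTie for assembly and quantification. The deposited table names its values FPKM, but each counted column sums to between 997480 and 998888, as TPM do, so those values were treated as TPM. The deposited values of the 15 columns close to the mean of the 3 counted ones were treated as a score and used only as an alternative. The study's correction for unwanted variation (RUVs) and its edgeR test on read counts could not be repeated on these values. Values were used without further scaling. The members, gene lists and roles were chosen with earlier results of these data known, and roles were assigned by hand after the members were seen. By the rule for named genes, these were the 12 members highest at W2, the 8 with the highest ratio to a next stage of at least 0.5 TPM, members of a gene list, genes with several members and the transcripts nearest the ratio limit. The other members, the transcripts near the TPM floor, CSN2 and LOC110259370 were named after their values were seen. limma 3.58.1 (R 4.3.3) was fitted to the 5 stages together, on log2(TPM + 0.5) without a filter and with trended variance, and was tested on simulated data. In all, 10 comparisons were made, 6 of them without W2. Reference transcripts were matched to gene symbols by RefSeq identifier (29301 of 29303, all 40 members), and gene positions were read for Sscrofa11.1. Sums and ratios used Python 3.11.15, numpy 2.4.6 and pandas 2.3.3. Alternatives were other pseudocounts, scalings, thresholds, a filter on low values, a replicate block, all 6 columns per stage, the compared stages alone and leaving out each sample. Sows differ between stages. In the main fit the p-values rest on a spread within stages, pooled over the 15 counted samples and moderated across all transcripts. TPM does not return the reads of a transcript, so library read totals that the study lists were not used and no counting interval is given. No sequences are printed. The single values of 1 of the 40 transcripts are not reported here.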

Additional observations from a re-analysis of the deposited data

Results flagged for a closer look

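Outside the reference messenger transcripts, the same rule was met at W2 by 31 of 29047 transcripts that the assembly added without a reference identifier (0.107%) and by 3 of 3423 other reference transcripts such as non-coding ones (0.0876%), against 40 of 29303 (0.137%) in the report. With PL as the peak these were 68 and 5. They are listed because the rule was applied above to reference messenger transcripts, and these transcripts entered the limma fit and its background shares but were not described. Assembled transcripts carry no gene symbol here.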

How the results depend on the processing

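The number of transcripts meeting the rule was 40 as deposited, 8 after median ratio scaling, 9 after quantile normalization, 102 and 26 with floors of 1 and 10 TPM, 106 and 10 with ratios of 1.5 and 3, and 35 to 165 without 1 sample. Gene sums meeting the rule were 6, 1 after median ratio scaling and 4 to 7 without 1 sample. Calls among the 40 from MG to PL were 2, but 1 with a pseudocount of 1, median ratio scaling, quantile normalization or the replicate block, 0 with the compared stages alone, 7 with all 6 columns and 2 to 4 without 1 sample, the 4 being without MG sample 1. From LG to PL the 1 call became 3 with a pseudocount of 0.1, 2 with all 6 columns, 0 under median ratio scaling, quantile normalization, the block or the compared stages alone, and 0 to 2 without 1 sample, with 2 without EL sample 3 or PL sample 6. From EL to PL the 2 became 1 with a pseudocount of 1 or either scaling, 0 with the block or the compared stages alone, 7 with all 6 columns and 0 to 2 without 1 sample. Between MG, LG and EL the 0 calls became 1 each with all 6 columns and stayed 0 to 0 without 1 sample. From PL to W2 the 11 became 21 with all 6 columns, 5 with the 2 stages alone and 6 to 15 without 1 sample, with 7 without PL sample 2 and 6 without W2 sample 6. No direction reversed. The 6 columns of a stage are not separate animals in their values, so their added calls rest on too small a spread. For other moves the cause was not tested. Sample numbers do not pair sows between stages, and 19 same-numbered pairs correlated at -0.142 to 0.167, with 7 over 0.1. Samples MG 1, LG 3, EL 4, PL 6 and W2 6 correlated with each other at 0.0553 to 0.183. So did MG 3, LG 4, EL 3, PL 3 and W2 3 (0.0796 to 0.183). MG 6, LG 1, EL 6, PL 2 and W2 2 did so at 0.0747 to 0.179, and all other pairs were at most 0.0369. The source of this grouping was not tested. Neither the main fit nor the replicate block, which follows sample numbers, takes it up. The rule's W2 limits, zeros in transcripts of expressed genes and the lack of read counts in the table limit every value given.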
